A study of Mus musculus with 3 samples.

Results

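The Sall genes encode large C2H2 zinc finger proteins, and the mouse has 4 of them, *Sall1*, *Sall2*, *Sall3* and *Sall4*. They were taken by gene name from 23953 genes, and all 4 were found, each with a level above 1 FPKM in every library. FPKM counts the sequenced fragments of a gene per kilobase of transcript and relative to the depth of the library, so levels can be compared between genes.

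SALL proteins are transcription factors named after the *spalt* gene of *Drosophila*. A short motif at their N-terminus binds NuRD, a corepressor complex that joins histone deacetylase and nucleosome remodeling activities, and their zinc fingers bind DNA. *Sall4* is needed in the early embryo and in embryonic stem cells (ESCs), where its protein acts beside OCT4, SOX2 and NANOG. *Sall1* is also active in ESCs and is best known for its role in kidney development, *Sall3* in the development of the palate and cranial nerves, and *Sall2* in closure of the eye and in growth control.

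RNA-seq was performed on E14 mouse ESCs, a male line cultured with LIF, with 1 library for each of 3 conditions. The WT library came from WT cells. The library labelled Tam came from *Oct4* DE (−/−) cells given 4-OH tamoxifen for 48 h, and the library labelled DoxTam came from the same kind of cells given 4-OH tamoxifen and doxycycline for 48 h. In these clonally expanded cells tamoxifen activates CreERT2 to remove a loxP-flanked part of the distal enhancer (DE) of *Oct4*, and doxycycline acts through rtTA to induce transgenic mouse *Oct4*. The study describes its comparison cells as wild-type (+/+), without the loxP insertion. The labels list the inducible constructs for every sample, and whether the sequenced WT cells carried them was not settled here. Each condition was sequenced once, so no difference could be checked against replicates, and a fold compares one library with another.

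The coding sequences of *Sall2* and *Sall4*, the scarcest and most abundant members in these cells, open with the stretch that encodes the NuRD-binding motif. This pair shared 8 of the first 12 residues, fewer than the 11 between each pair of SALL1, SALL3 and SALL4. The first 36 coding bases are given on the minus strand of mm9, and capitals mark the 24 bases that are the same in both genes.
Sall2, chr14:52947815-52947850, exon 1: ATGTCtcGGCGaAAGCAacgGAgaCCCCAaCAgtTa
Sall4, chr2:168592494-168592529, exon 1: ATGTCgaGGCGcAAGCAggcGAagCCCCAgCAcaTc

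Over the whole protein the paralogs were less alike. SALL1 and SALL3 were the closest pair, with 59.7% identical residues among those aligned, and SALL2 and SALL4 the most distant, with 40.6%. SALL4 was 49.4% identical to SALL1 and 48.8% to SALL3, whereas SALL2 stood at 43.4% and 44.3% to the same proteins. Of the first 12 residues, 11 were identical between each pair of SALL1, SALL3 and SALL4, and 8 or 9 between SALL2 and the others. The proteins have 1323 (SALL1), 1004 (SALL2), 1248 (SALL3) and 1067 (SALL4) residues, with 9, 7, 7 and 8 matches to the C2H2 zinc finger pattern.

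Identity in protein did not carry over to long runs of shared nucleotides. The longest exact run shared by any pair of transcripts was 38 nt, between *Sall1* and *Sall3*, and no pair shared a run of 50 nt. A lincRNA gene annotated on the opposite strand overlaps the start of *Sall4*, and the sources used here do not say if fragments were counted by strand, so fragments from that overlap cannot be assigned. No annotated gene overlaps *Sall1*, *Sall2* or *Sall3*.

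**Figure D1:**
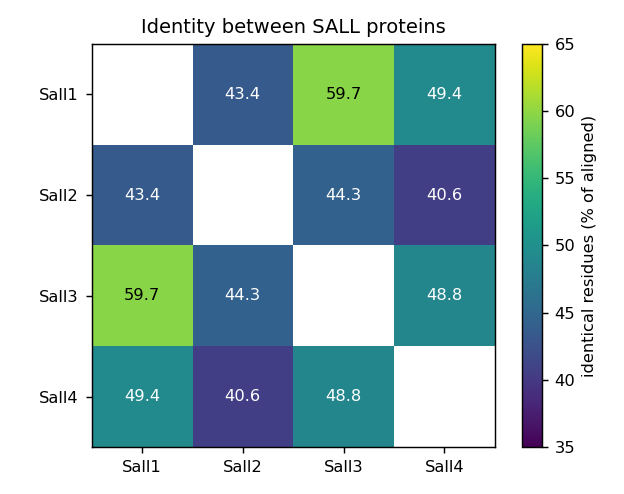
Percent of aligned residues that are identical between each pair of SALL proteins (both axes list the 4 genes, color gives the percent). SALL1 and SALL3 are the closest pair at 59.7%, and the 3 pairs with SALL2 lie between 40.6% and 44.3%.

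The design acts on *Pou5f1*, which encodes OCT4, so its level came first. WT held it at 664 FPKM, and the libraries labelled Tam and DoxTam at 529 and 458 FPKM. As deposited, the lowest level was thus in the library that should carry induced *Oct4*, which goes against the labels. For DoxTam against Tam the log2 fold of *Pou5f1* was -0.21. Rescaling each library to the same total moved the median fold of all genes for this comparison from -0.019 to 0.172. That step applies the same factor to every gene of a library. It moved the *Sall4* fold for this comparison from -0.056 to 0.16, or to -0.042 without small RNA genes in the total. The order of the *Pou5f1* levels in Tam and DoxTam thus rests on the scaling, and its fold after rescaling was not computed. The library labelled Tam held *Pou5f1* within 1.5-fold of WT (-0.33 on the log2 scale). The transgene encodes mouse *Oct4*, so its fragments can count toward this gene. The libraries are therefore named by their labels, and any direction drawn from them rests on these labels. Depth, estimated from the level of a single fragment, was highest in WT, and the libraries labelled Tam and DoxTam had 0.458 and 0.547 of it. The 10 ESC markers lay between 106 and 793 FPKM in WT, and the lowest of them was at 90.6 FPKM in Tam and 83.2 FPKM in DoxTam.

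The Sall genes kept one order in all 3 libraries, with *Sall4* first, then *Sall1*, *Sall3* and *Sall2*. In WT *Sall4* stood 2.25 times above *Sall1* (95% counting interval 2.16 to 2.33), *Sall1* 18.2 times above *Sall3* (16.1 to 20.7), and *Sall3* 1.92 times above *Sall2* (1.52 to 2.42). The same steps were 3.21, 4.56 and 3.22 in Tam and 2.22, 13.5 and 2.04 in DoxTam. Every neighbor differed by more than counting error in every library, with 1.52 as the lowest bound in WT, 2.48 in Tam and 1.53 in DoxTam. These intervals are exact and cover counting error only, not the spread between cultures. ESCs of this line thus held a pair of abundant Sall transcripts and a pair of scarce ones, and the gap between the pairs was narrowest in Tam.

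**Figure D2:**
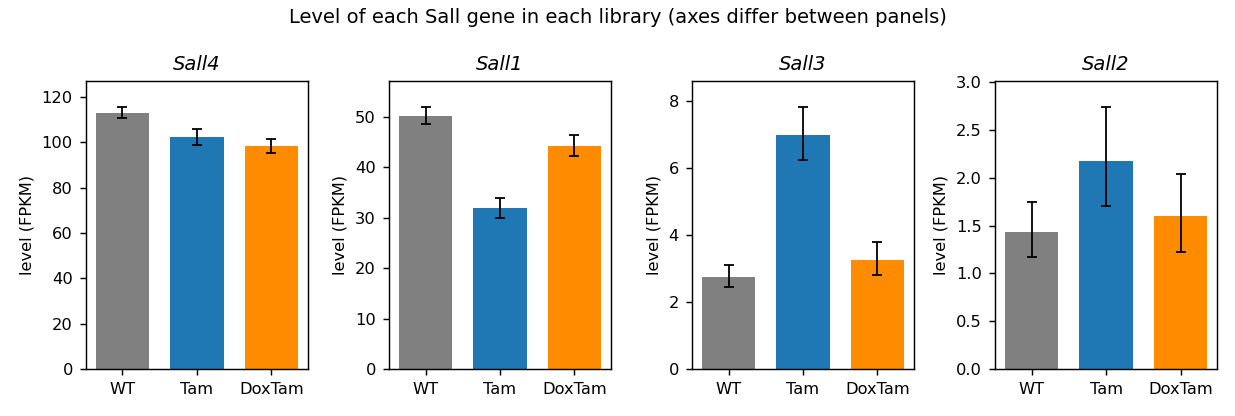
Level in FPKM (y axis, from 0, on its own scale in each panel) of each Sall gene in the WT, Tam and DoxTam libraries, with bars for the single library of each condition and error bars for the exact 95% counting interval. *Sall1* is lowest and *Sall3* highest in Tam, at 31.9 and 7.00 FPKM, and *Sall4* lies between 98.4 and 113 FPKM.

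*Sall4*, the factor most tied to ESC self-renewal, lies on chromosome 2 (mm9, 168573832 to 168592701, minus strand, 4 exons). WT held 113 FPKM of it, against 102 FPKM in Tam and 98.4 FPKM in DoxTam, from about 8026, 3332 and 3826 fragments. It ranked 606th, 636th and 692nd among all genes, within the top 3% of genes in each library. WT was the highest and the treated libraries were close to each other. The log2 fold, taken as the log2 ratio of FPKM + 1, was -0.14 for Tam against WT (-0.20 to -0.083) and -0.20 for DoxTam against WT (-0.25 to -0.14). Both lay inside 1.5-fold, the limit used here to call a gene higher or lower. Both turned positive after each library was rescaled to the same total (0.0044 and 0.16). Small RNA genes held 63.9%, 59.8% and 53.8% of that total in WT, Tam and DoxTam. Without them in the total both folds stayed negative (-0.15 and -0.19). *Sall4* thus differed least of the 4 genes in proportion for Tam.

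*Sall1* lies on chromosome 8 (mm9, 91551143 to 91568061, minus strand, 4 exons). It was at 50.3 FPKM in WT, 31.9 FPKM in Tam and 44.2 FPKM in DoxTam, from about 3701, 1075 and 1781 fragments. Tam was thus the lowest library, and DoxTam lay between it and WT. The log2 fold for Tam against WT was -0.64 (-0.74 to -0.55), a ratio of 0.634, and *Sall1* was called lower. Genes lower by 1.5-fold made up 3.59% of the 12705 genes at 1 FPKM or more in either library, and 3.91% of the 6345 genes at 10 FPKM or more in WT. The call was close to the limit and was lost at 2-fold. The fold was inside 1.5-fold with a pseudocount of 5 FPKM (-0.58) and after rescaling to the same total (-0.50). *Sall1* stayed called after rescaling without small RNA genes in the total (-0.65). For DoxTam against WT the log2 fold was -0.18 (-0.26 to -0.10), inside the limit. It turned positive after rescaling (0.17) but stayed negative without small RNA genes in the total (-0.17).

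*Sall3*, the paralog closest to *Sall1* in protein, went the other way in Tam. It lies on chromosome 18 (mm9, 81163113 to 81183317, minus strand, 4 exons). It was measured at 2.76 FPKM in WT, 7.00 FPKM in Tam and 3.27 FPKM in DoxTam, from about 266, 309 and 173 fragments. Tam was the highest library by a wide margin, and WT and DoxTam were close. The log2 fold for Tam against WT was 1.09 (0.88 to 1.30), a ratio of FPKM of 2.54, and *Sall3* was called higher. On the log2(FPKM + 1) scale the change of such a low gene is understated.

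Genes higher by 1.5-fold made up 6.98% of all genes kept for Tam against WT and 6.30% of the 5730 genes at 1 to 10 FPKM in WT. The *Sall3* call held under the 11 alternatives, from 0.63 to 1.31. The filter at 5 FPKM is met by *Sall3* only through Tam and lends no support. Dropping the filter and taking the first row of each gene name could not change this fold, so they lend none either. For DoxTam against WT the log2 fold was 0.18 (-0.026 to 0.41), so a difference was not detectable at this depth. The 1117 olfactory receptor genes, which ESCs do not use, averaged 0.285 FPKM in Tam, 0.0718 FPKM in WT and 0.0616 FPKM in DoxTam. With that level subtracted, a choice made after seeing the data, *Sall3* stood at 1.07.

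*Sall2* lies on chromosome 14 (mm9, 52930852 to 52948345, minus strand, 2 exons) and was the scarcest member. It stood at 1.44 FPKM in WT, 2.18 FPKM in Tam and 1.60 FPKM in DoxTam, from about 104, 72 and 63 fragments. Tam was again the highest library. The log2 fold was 0.38 for Tam against WT (0.085 to 0.70) and 0.092 for DoxTam against WT (-0.18 to 0.39), both inside 1.5-fold. As a plain ratio of FPKM, Tam stood at 1.51 times WT, so the 1 FPKM added on the log scale decides the call. With so few fragments a 1.5-fold change of *Sall2* in Tam lies within the counting interval.

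In DoxTam against WT none of the 4 Sall genes reached 1.5-fold, under the settings used here or any of the alternatives. Over all 12384 genes kept 4.12% were higher and 5.78% were lower. In Tam against WT the count was 1 higher and 1 lower of 4, too few to read against the background.

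DoxTam was set against Tam across the 2 deposited tables, which share the WT library. *Sall3* fell by 0.91 on the log2 scale (interval -1.11 to -0.69), from 7.00 to 3.27 FPKM, and was called lower. *Sall1* was higher by 0.46 (0.35 to 0.57), inside 1.5-fold, and it passed that limit only after rescaling to the same total (0.67). *Sall2* (-0.29, -0.58 to 0.041) and *Sall4* (-0.056, -0.12 to 0.010) had counting intervals that include 0. Genes lower by 1.5-fold made up 5.74% of the 12647 genes kept, and genes higher 2.09%. The *Sall3* call was lost with a pseudocount of 5 FPKM (-0.54) and at 2-fold. The libraries thus differed most for *Sall3* and *Sall1*, in opposite directions.

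**Figure D3:**
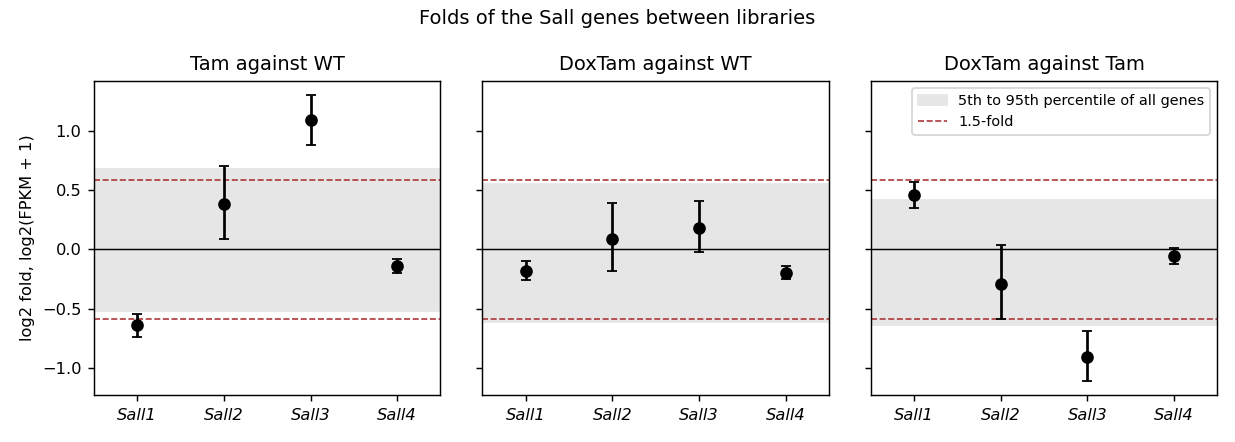
Log2 fold of FPKM + 1 (y axis) of each Sall gene (x axis) for Tam against WT, DoxTam against WT and DoxTam against Tam, with exact 95% counting intervals as error bars. Dashed lines mark 1.5-fold and the gray band holds the 5th to 95th percentile of all genes kept; *Sall3* at 1.09 and *Sall1* at -0.64 lie outside the band for Tam against WT, and all 4 genes lie inside it for DoxTam against WT.

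The family as a whole summed to 167 FPKM in WT, 143 FPKM in Tam and 148 FPKM in DoxTam. *Sall4* made up 67.5%, 71.4% and 66.7% of that sum in the same order. *Sall1* made up 30.0% in WT, 22.2% in Tam and 30.0% in DoxTam. Tam thus had the smallest *Sall1* share. *Sall3* stood at 1.65% in WT, 4.88% in Tam and 2.22% in DoxTam, and *Sall2* stood at 0.859%, 1.52% and 1.08%. By estimated fragments *Sall3* held 2.20% in WT (1.94 to 2.48) and 2.95% in DoxTam (2.54 to 3.43), intervals that do not overlap. This share is of a family sum that was smaller in DoxTam. The log2 fold of *Sall3* itself for DoxTam against WT had an interval that includes 0 (-0.026 to 0.41). The gain of *Sall3* in Tam came to 4.24 FPKM, whereas *Sall1* fell by 18.4 FPKM. In a bulk library fewer cells with a transcript and less of it per cell cannot be told apart.

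**Figure D4:**
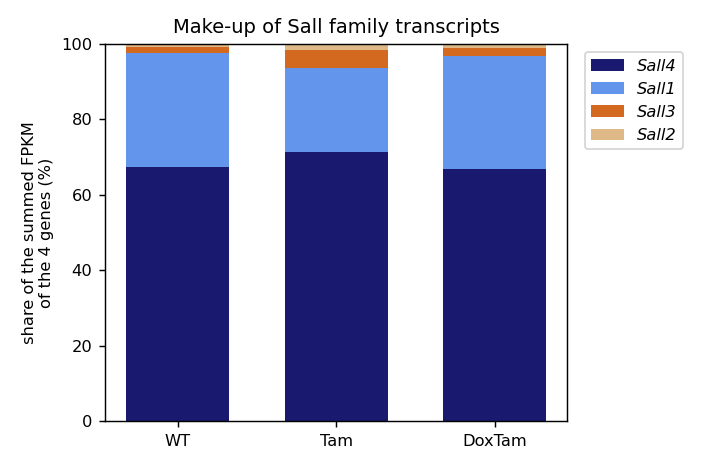
Share of the summed FPKM of the 4 Sall genes (y axis, percent) taken by each gene in each library (x axis), as stacked bars. *Sall1* takes 22.2% in Tam against 30.0% in WT, and *Sall3* takes 4.88% against 1.65%.

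The NuRD complex, which SALL proteins recruit, was measured in full, with all 15 listed subunits at 1 FPKM or more. In Tam against WT none of the 15 reached 1.5-fold, with a median log2 fold of -0.17 against 0.021 over all genes. In DoxTam against WT 1 subunit did, *Mbd3*, a methyl-CpG-binding domain protein needed for NuRD assembly, at 20.5 FPKM against 35.8 FPKM (-0.78), beside 5.78% of all genes lower. No subunit was lower after removal of the GC trend or after rescaling to the same total, which turned the median positive (0.18) and left 1 subunit higher. Over all 12643 genes kept after that rescaling, 2784 were higher and the median was 0.319. Without small RNA genes in the total the NuRD median stayed at -0.16, with 1 subunit lower. *Chd4*, the main remodeling ATPase, was at 144, 121 and 122 FPKM, and *Hdac1*, a deacetylase, at 105, 80.6 and 86.9 FPKM. The summed level of the 15 subunits was 867 FPKM in WT, 803 FPKM in Tam and 808 FPKM in DoxTam.

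Of 16 ESC transcription factors that act with SALL4, 1 was higher and none lower in Tam against WT. This was *Tfcp2l1*, a naive-state factor downstream of LIF, at 139 FPKM against 90.7 FPKM (0.61), beside 6.98% of all genes higher. *Tfcp2l1* had no GC value, so its call could not be assessed after removal of the GC trend. None reached 1.5-fold in DoxTam against WT. After rescaling to the same total 5 were higher, with a median of 0.33 against -0.031 as deposited. Over all 12643 genes then kept, 2784 were higher and the median was 0.319. Without small RNA genes in the total 0 of these factors were higher, with a median of -0.023. In DoxTam against Tam 1 was higher, *Nr0b1*, a nuclear receptor that binds OCT4, at 44.2 FPKM against 28.8 FPKM (0.60), beside 2.09% of all genes. After rescaling 3 were higher, beside 782 of all 12988 genes then kept. Of the 10 ESC markers only *Utf1*, a chromatin factor, was called in either comparison with WT, lower in both (181 FPKM in WT, 90.6 FPKM in Tam and 83.2 FPKM in DoxTam). Genes lower made up 3.59% of all genes kept for Tam against WT and 5.78% for DoxTam against WT.

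Most markers of other cell types were low in all 3 libraries, but *Lama1*, *Tubb3* and *Krt18* were above 10 FPKM in each. The values are given beside *Sall3* because some of the markers were also highest in Tam. The olfactory receptor genes also averaged more in Tam (0.285 FPKM) than in WT (0.0718 FPKM). That level was not subtracted from the sums below, where many markers lie under 1 FPKM. The summed level of the 9 trophectoderm markers was 27.6 FPKM in WT, 34.4 FPKM in Tam and 29.0 FPKM in DoxTam. Within it *Gata3* stood at 0.098, 1.77 and 0.213 FPKM and *Cdx2* at 0.639, 2.82 and 0.128 FPKM, both transcription factors of that lineage, whereas *Tfap2c* was highest in WT (6.55, 4.46 and 3.70 FPKM) and *Eomes* in DoxTam (2.91, 4.08 and 5.43 FPKM). *Gata3* and *Cdx2* reached 1 FPKM in Tam only, so their passing 1.5-fold follows in part from the filter. Of the 6 trophectoderm markers kept for Tam against WT, 2 were called higher and 0 lower, with a median log2 fold of 0.34. Over all genes kept, 6.98% were higher and 3.59% lower. Of the 4 kept for DoxTam against WT, 1 was called higher and 1 lower, beside 4.12% and 5.78% of all genes.

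The 8 mesoderm and streak markers summed to 5.88 FPKM in WT, 10.6 FPKM in Tam and 9.54 FPKM in DoxTam. *T*, the Brachyury gene, stood at 0.309, 1.92 and 0.511 FPKM and *Snai1* at 0.520, 1.72 and 1.30 FPKM, and both were under 1 FPKM in WT. The 10 neural markers summed to 40.3, 29.6 and 34.2 FPKM in the same order. Among them *Nes*, an intermediate filament gene, was highest in Tam (1.71, 3.62 and 1.35 FPKM) and *Tubb3*, a neuronal tubulin, was lowest there (24.8, 15.3 and 20.7 FPKM). The 8 primitive endoderm markers summed to 37.6, 35.1 and 30.9 FPKM, most of it from *Lama1* at 33.7, 31.4 and 27.2 FPKM. No member was called, but only 2 of the 8 were kept in each comparison. The 8 fibroblast markers summed to 6.63 FPKM in WT and 3.74 FPKM in DoxTam, with Tam between them and *Thy1* at 4.52, 2.27 and 2.63 FPKM. The part of any of these genes in the level of *Sall3* was not tested.

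**Figure D5:**
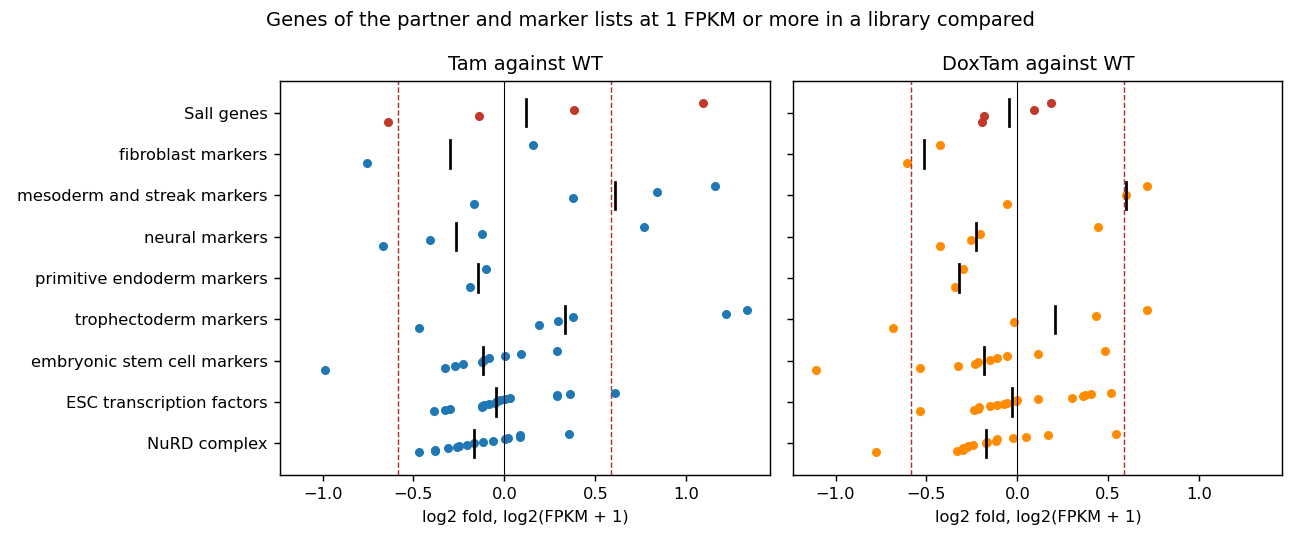
Log2 fold of FPKM + 1 against WT (x axis) of each kept gene of the partner and marker lists (y axis) in Tam (left) and DoxTam (right), with the Sall genes in red. Points are genes of 1 library against the WT library, black bars are medians and dashed lines mark 1.5-fold; the NuRD median is -0.17 in each panel, while *Sall3* lies to the right of every NuRD subunit in Tam.

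The genes with levels most like each member at 5 FPKM or more in at least 1 library, a bar that *Sall3* met in Tam only, were found by distance over log2(FPKM + 1) in the 3 libraries, among 19485 named genes. For *Sall4* the nearest were *Calm3*, a calmodulin gene, *Psmc3*, a proteasome ATPase gene, and *Zfp42*, the ESC marker Rex1, at distances of 0.014, 0.036 and 0.042. For *Sall1* they were *Hist2h2ab*, a histone H2A gene, *Stag3*, a meiotic cohesin gene, and *Ptrf*, a caveolae gene, at 0.10, 0.14 and 0.14. For *Sall3* they were *Igsf23*, *Rragd*, a Rag GTPase gene of amino acid sensing, and *Nckap1l*, a WAVE complex gene of blood cells, at 0.11, 0.18 and 0.19. With 3 libraries many genes come this close: 84 lay within 0.3 of *Sall4*, 27 of *Sall1* and 10 of *Sall3*.

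One primer pair used for RT-qPCR in the study bears on how *Sall1* and *Sall4* are told apart, and it is shown for that reason. The study lists it under mSall1, and it is printed in lower case with no base marked.
forward: catcatgaatgacagcgaggg
reverse: ccgttctcctggagactgtc
Both primers matched *Sall4* exactly and no other gene among 55443 protein-coding transcripts, in exon 2 at chr2:168582108-168582128 and chr2:168582021-168582040 of mm9, with a product of 108 nt. The best placement on *Sall1* left 7 mismatches for each primer. By sequence, then, this pair reads *Sall4*, the gene that the study also names among those it measured by RT-qPCR, so the listed name differs from the gene measured.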

How the data were processed

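The 3 RNA-seq libraries of E14 ESCs were grouped by the submitters' labels. The authors deposited 2 tables of gene levels in FPKM, made with TopHat, Bowtie (versions not given) and Cufflinks 2.0.0 on mm9, as the submitters' processing notes give them. The deposited fold, test statistic, p-value and q-value columns hold the authors' own comparisons of single libraries and were not used. WT levels of the Sall genes did not differ between the tables by over 1%.

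FPKM values were compared as deposited, as log2 of FPKM + 1, among genes that reached 1 FPKM in either library compared, and called at 1.5-fold. No test was possible with 1 library per condition. Fragment numbers were estimated from the lowest levels of genes of 2 to 10 kb, are approximate, and gave exact (Clopper-Pearson or Poisson) 95% intervals for counting error only. Gene models and GC content came from GENCODE on mm9, and proteins were translated from them and aligned with Biopython 1.88. Python 3.11.15, pandas 2.3.3, scipy 1.17.1 and statsmodels 0.14.6 (lowess span 0.2) were used. Alternatives were pseudocounts of 0.1 and 5 FPKM, filtering at 5 FPKM or not at all, 2-fold, centring on the median fold, rescaling to a common total with and without small RNA genes, removal of the GC trend, the first row of each gene name, and subtraction of the olfactory receptor level, the last chosen after seeing the data. The steps were tested on simulated data. Named genes are the Sall genes and *Pou5f1*, up to the 2 highest and 2 lowest called members of each list, and the 3 genes nearest to each member at 5 FPKM or more. *Chd4*, *Hdac1*, *Krt18* and *Lama1* were named after their values were seen. The members and lists were chosen with earlier results of these data known.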

Additional observations from a re-analysis of the deposited data

How the results depend on the processing

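No paired analysis was possible because each condition has 1 library and the labels carry no replicate numbers. Leaving out a library was not possible for the same reason. Of the 4 Sall genes, 2 were called for Tam against WT, and 1 with a pseudocount of 5 FPKM, at 2-fold, or after rescaling to the same total, each time without *Sall1*. For DoxTam against Tam 1 was called, 0 with a pseudocount of 5 FPKM or at 2-fold, and 2 after rescaling. For DoxTam against WT the count was 0 throughout. With small RNA genes left out of the total, rescaling kept the counts at 2 for Tam against WT and 1 for DoxTam against Tam. Listed genes called went from 9 to 8 for Tam against WT, from 6 to 13 for DoxTam against WT and from 5 to 11 for DoxTam against Tam after rescaling. By estimated fragments in place of FPKM, *Sall3* held 2.20%, 6.46% and 2.95% of the family in WT, Tam and DoxTam, and *Sall4* held 66.3%, 69.6% and 65.5%. No fold that was called reversed.

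Rescaling to the same total moved the median of all genes to 0.152, 0.319 and 0.172 for Tam against WT, DoxTam against WT and DoxTam against Tam. The genes called then numbered 1412 higher and 272 lower (887 and 456 as deposited), 2784 and 222 (510 and 716), and 782 and 559 (264 and 726). *Mir6236* alone made up 43.1%, 35.3% and 27.4% of FPKM in WT, Tam and DoxTam, and without small RNA genes in the total the numbers were 874 and 471, 536 and 694, and 284 and 702. With the olfactory receptor level subtracted, chosen after seeing the data, they were 695 and 664 for Tam and 409 and 532 for DoxTam against Tam. After removal of the GC trend they were 594 and 259, 202 and 282, and 165 and 529. A pseudocount of 5 FPKM left 296 and 168, 176 and 262, and 75 and 194. The depth limits *Sall2*, with 63 to 104 fragments per library.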
